A study of Gallus gallus with 6 samples.

Results

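IGFBP4, THRA and SOCS2 are genes of the growth hormone and thyroid hormone axes, described here in the liver of the rooster. They were found by their gene symbols in the authors' deposited table of differentially expressed mRNAs, where each had 1 row, so that the members were 3 of the 1480 mRNA rows. The rule also took as context every row with a symbol that begins with IGF, GHR or DIO, which added 5 rows. All livers came from Arbor Acres breeder roosters, a broiler breeder line, that were deprived of feed before death. The immature group was 3 libraries of total RNA depleted of ribosomal RNA, each a pool of 4 livers from chicks aged 1 day. The mature group was 3 libraries made the same way, each from the liver of 1 cock aged 40 weeks. The labels name no other treatment, and age was the comparison. The pools average over single chicks, and the pooling differed with age, so that pooling and age cannot be told apart.

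The authors deposited 1 FPKM value (fragments scaled to transcript length and to the mapped fragments of the library) per group and transcript. The spread between the 3 libraries and the read depth behind a value are therefore unknown, no test was run, and every value is printed as the authors' value of the group, with no error. The table also holds only transcripts that the authors had already selected on this comparison. All 1466 rows above 0 in both groups differed by a plain ratio of at least 2.00, so the fact that a listed gene differed is not independent evidence of a change.

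IGFBP4 is a secreted protein that binds insulin-like growth factors and is best known for keeping them from their receptor. THRA is the alpha receptor for thyroid hormone, a nuclear receptor that binds DNA and regulates genes according to whether hormone is bound. SOCS2 is an intracellular inhibitor of the growth hormone receptor, itself induced by growth hormone through JAK2 and STAT proteins. In this axis growth hormone acts on the liver, the liver releases insulin-like growth factors, and binding proteins carry or sequester them. Thyroid hormone acts beside it on growth and on the metabolic genes of the liver.

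IGFBP4 (ENSGALG00000028931) was listed at 13.7 FPKM in the immature group and 97.3 FPKM in the mature group. The mature value was 7.10 times the immature one, a difference of 2.74 on log2(FPKM + 1), the scale used for all differences below, mature minus immature. It ranked 64 among the 1480 rows when these were ordered from the highest difference down, so that 4.26% of the rows had a larger one. Its place in the table by level differed too: 77.1% of the rows lay below it in immature livers and 93.0% in mature livers. In whole liver, as here, a difference in the number of cells of a type and a difference in RNA per cell cannot be told apart.

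THRA (ENSGALG00000000270) went the other way. It was listed at 17.6 FPKM in the immature group and 7.21 FPKM in the mature group, so that the immature value was 2.44 times the mature one (difference -1.18). This was an ordinary size for the table, in which the median of the rows with a lower value in mature livers was -1.15. The beta receptor for thyroid hormone, THRB, was not analysed here, and THRA says nothing of its level.

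SOCS2 (ENSGALG00000011295) was listed at 2.12 FPKM in the immature group and 6.69 FPKM in the mature group, 3.15 times higher (difference 1.30). The median difference of the rows with a higher value in mature livers was 1.18, and 22.7% of all rows had a larger difference than SOCS2. In immature livers 41.8% of the rows lay below SOCS2, and in mature livers 62.9%.

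The order of the 3 genes differed between the ages. In immature livers THRA had the highest level per length, at 1.28 times IGFBP4 and 8.28 times SOCS2. In mature livers IGFBP4 was at 13.5 times THRA, and THRA was at only 1.08 times SOCS2. Whether neighbours in this order differ beyond the spread of libraries cannot be tested with 1 value per group.

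**Figure D1:**
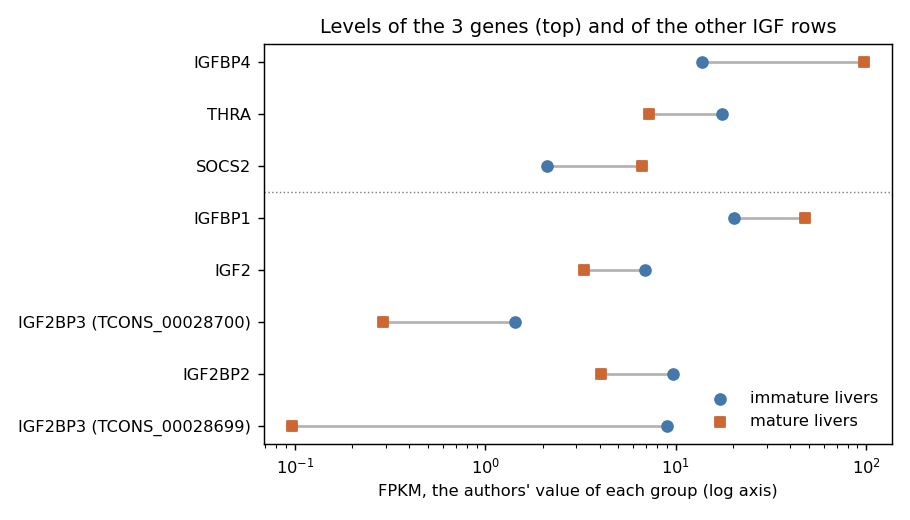
FPKM of the 3 genes and of the 5 other rows whose symbol begins with IGF, as the authors' value for immature livers (circles) and mature livers (squares), on a log axis. IGFBP4 went from 13.7 to 97.3 FPKM and SOCS2 from 2.12 to 6.69 FPKM, while THRA went from 17.6 to 7.21 FPKM.

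All 3 members lay past 2-fold on log2(FPKM + 1), 2 of them higher and THRA lower in mature livers. Of all 1480 rows, 35.9% were past 2-fold higher and 29.8% past 2-fold lower, and nothing is read from the members' count because the table was selected on a fold. Rescaling the groups mattered for SOCS2. With the mature values divided by the median ratio of the rows, 2.15, the difference of SOCS2 shrank to 0.40, under 2-fold, while IGFBP4 stayed at 1.66 and THRA reached -2.09. That scaling moved the median of all rows by -0.64 and turned 532 higher and 441 lower rows past 2-fold into 158 and 582. It takes its factor from rows that were selected as changed. Of the 1466 rows above 0 in both groups 803 were higher, each by a ratio over 2. The factor was therefore bound to lie above 2, and it cannot be read as a measure of scale between the libraries. Division by the factor lowers every difference, that of THRA included. Of the deposited rows 812 were higher and 668 lower in mature livers. The paper reports the opposite balance for its own list, with more mRNAs down-regulated than up-regulated in mature livers. Why the 2 lists differ was not tested.

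**Figure D2:**
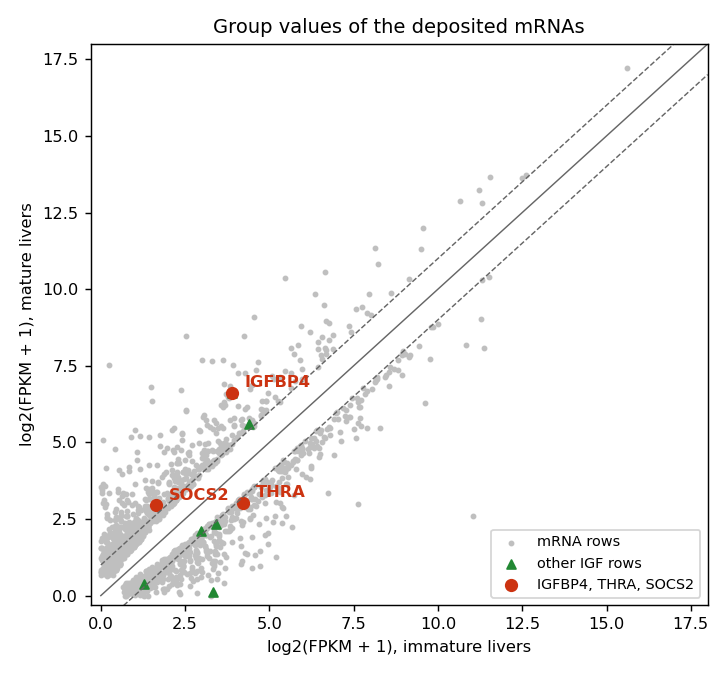
Each point is 1 of the 1480 mRNA rows, placed by log2(FPKM + 1) in immature livers (horizontal) and mature livers (vertical), with the other IGF rows as triangles. The solid line marks equal values and the dashed lines a difference of 1; IGFBP4 (2.74) and SOCS2 (1.30) lie above the upper dashed line, THRA (-1.18) below the lower one, and of all rows 973 lie outside the dashed lines.

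Among the insulin-like growth factor rows, the binding proteins were higher in mature livers, and the growth factor and the RNA-binding proteins named after it were lower. IGFBP1 (chromosome 2, 54998846 to 55006844), a binding protein that the liver releases in fasting, was listed at 20.2 FPKM in the immature group and 47.5 FPKM in the mature group (difference 1.19). This difference was 0.12 after scaling by the median ratio. IGFBP1 was thus the more abundant of the listed binding proteins in immature livers, at 1.48 times IGFBP4, and IGFBP4 in mature livers, at 2.05 times IGFBP1. Of the summed FPKM of both, IGFBP4 made up 40.4% in immature and 67.2% in mature livers, a share that no scaling of the groups alters.

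IGF2 (chromosome 5, 13148085 to 13199993), a growth factor of fetal and early life in mammals, was listed at 6.89 FPKM in the immature group and 3.31 FPKM in the mature group (difference -0.87). The difference was -1.06 without a pseudocount, which is past 2-fold by the selection of the table. It was -1.63 after scaling by the median ratio, which can only lower a difference. Neither value is independent evidence of a change past 2-fold. The ratio of IGFBP4 to IGF2 was 1.99 in immature livers and 29.4 in mature livers. IGF1, the main growth factor that the liver makes under growth hormone, was not analysed here.

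The IGF2BP proteins bind RNA, including that of IGF2, and IGF2BP3 is known in mammals as a fetal-type protein. IGF2BP3 had 2 transcripts in the table. TCONS_00028699 was listed at 9.02 FPKM in the immature group and 0.0970 FPKM in the mature group (difference -3.19), and TCONS_00028700 at 1.43 and 0.292 FPKM (difference -0.91). Their sum went from 10.5 to 0.389 FPKM (difference -3.04); the split of reads between transcripts of 1 gene is uncertain. IGF2BP2 was listed at 9.65 and 4.03 FPKM (difference -1.08). Of the 20 genes in the list of insulin-like growth factors and binding proteins, 5 were in the table with 6 rows, of which 2 were higher and 4 lower, 2 in each direction past 2-fold. Of all 1480 rows 54.9% were higher and 45.1% lower. Past 2-fold higher were 35.9%, and past 2-fold lower 29.8%. The 6 rows of the list include the member IGFBP4 and both transcripts of IGF2BP3. The median difference of the 6 rows was -0.89, against 0.64 over all 1480 rows. The latter is not a typical difference, because the higher and lower rows of the table had medians of 1.18 and -1.15. None of the rows had a symbol that begins with GHR or DIO, so the growth hormone receptor and the deiodinases, which activate or inactivate thyroid hormone, were not analysed here.

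SOCS2 was listed together with other genes of growth hormone and cytokine receptor signalling, all higher in mature livers. Of 25 genes in that list 5 were in the table, with SOCS2 itself counted among them. All 5 were past 2-fold higher, against 35.9% of all rows (median difference 1.59, against 0.64 over all rows). After scaling by the median ratio 2 of the 5 stayed past 2-fold, against 158 of all 1480 rows past 2-fold higher. The median of the 5 was then 0.59. JAK2, the kinase bound to the growth hormone receptor, was listed at 2.23 FPKM in the immature group and 5.98 FPKM in the mature group (difference 1.11). Its level was close to that of SOCS2 in both groups, at 1.05 times SOCS2 in immature and 0.894 times in mature livers. STAT3, a transcription factor downstream of many cytokine receptors, was listed at 3.90 and 13.7 FPKM (difference 1.59). After scaling by the median ratio both were under 2-fold, STAT3 at 0.59 and JAK2 at 0.23.

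The phosphatases that remove phosphate from these kinases and receptors differed more. PTPN2 was listed at 4.36 FPKM in the immature group and 32.8 FPKM in the mature group (difference 2.66). PTPN6, which is abundant in blood cells, was listed at 4.22 and 25.7 FPKM (difference 2.35). By the authors' KEGG annotation, looked up after the values had been seen, 11 rows belonged to Jak-STAT signaling and all 11 were past 2-fold higher, among them the interferon receptor chains IFNAR1 (6.96 and 21.5 FPKM) and IFNGR1 (10.5 and 26.3 FPKM). Of all rows 35.9% were past 2-fold higher. After scaling by the median ratio 4 of the 11 rows stayed past 2-fold, namely PTPN6, IL2RG, IL7R and CSF2RB. IFNAR1 and IFNGR1 did not. Under that scaling 158 of all 1480 rows were past 2-fold higher. IL7R is also on the list of markers of T and natural killer cells. SOCS2 itself carries no KEGG term in the table.

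The listed markers of leukocytes were higher in the same livers, whereas the 2 listed erythroid markers were lower (summed 39.7 and 7.42 FPKM). TFRC made up 35.7 FPKM of the immature erythroid sum. Of 13 macrophage markers 6 were in the table, all higher, and their rows summed to 154 FPKM in the immature group and 1529 FPKM in the mature group. The largest mature values in this sum were those of 1 Ii transcript (548 FPKM) and of CTSS (442 FPKM). After scaling by the median ratio 5 of the 7 macrophage rows stayed past 2-fold, against 158 of all 1480 rows past 2-fold higher. Of 14 markers of T and natural killer cells 5 were in the table, all higher, with sums of 3.10 and 53.9 FPKM. The 3 listed markers of B and plasma cells and the 2 of heterophils were higher as well, with sums of 0.601 and 12.5 FPKM and of 4.97 and 67.7 FPKM. Of these mature sums IGJ made up 9.12 FPKM and LYG2 65.0 FPKM. With the same scaling 4 of the 5 T and natural killer cell rows were past 2-fold. So were 1 of the 3 B and plasma cell rows and 1 of the 2 heterophil rows. The part of these cells in the values of SOCS2 and of its pathway was not tested. Of all mRNA rows 54.9% were higher and 45.1% lower, so that a shared direction among 2 or 3 listed markers says little.

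Genes tied to thyroid hormone were mixed. In the list of receptors and partners 2 of 21 genes were in the table, both past 2-fold lower, against 29.8% of all rows. They were the member THRA itself and KLF9, which is not a receptor but a transcription factor that thyroid hormone induces in several species. KLF9 was listed at 33.4 FPKM in the immature group and 4.32 FPKM in the mature group (difference -2.69), so that it differed more than THRA.

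Of 20 genes that thyroid hormone is known to regulate in the liver of mammals or chicken, 4 were in the table, 2 higher and 2 lower, with a median difference of -0.27. CYP7A1, the rate-limiting enzyme of bile acid synthesis, was listed at 40.1 FPKM in the immature group and 4.22 FPKM in the mature group (difference -2.97). THRSP, a regulator of fat synthesis named for its response to thyroid hormone, was listed at 4.96 and 1.53 FPKM (difference -1.24). The chicken has paralogous copies of THRSP, which may share reads. PEPCK, an enzyme of glucose synthesis matched to PCK1 by its RefSeq accession, was listed at 14.6 and 32.9 FPKM (difference 1.12, and 0.07 after scaling by the median ratio). GPD2, the mitochondrial glycerol-phosphate dehydrogenase, was listed at 0.863 and 2.04 FPKM (difference 0.71, and 0.07 after that scaling). With the same scaling CYP7A1 was at -3.79 and THRSP at -1.80, and the median of the 4 rows was -0.87. IYD, which recovers iodide from iodinated tyrosine in the thyroid of mammals, was noticed after its values were seen, with 16.9 and 4.35 FPKM (difference -1.74).

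None of the 20 listed genes of thyroid hormone supply and none of the 30 genes of insulin and IGF receptor signalling was among the rows, and no level of these genes was analysed here.

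**Figure D3:**
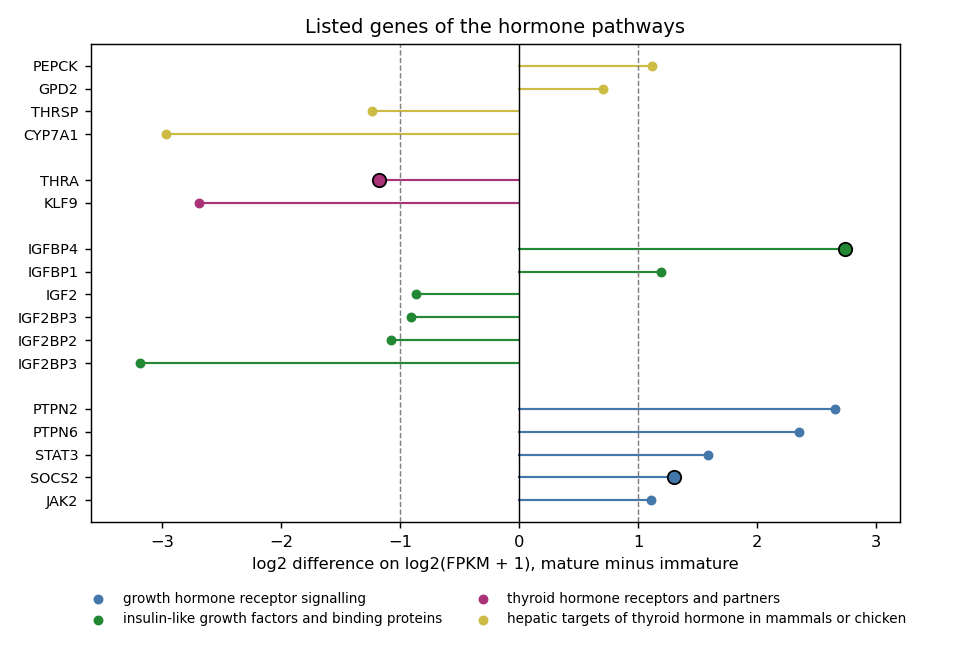
Difference on log2(FPKM + 1), mature minus immature, for each row of the pathway lists that was in the table, coloured by list, with the 3 members drawn larger and dashed lines at -1 and 1. The 5 rows of growth hormone receptor signalling lie at 1.11 to 2.66, whereas the binding proteins and the other IGF rows lie on opposite sides of 0.

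IGFBP4 and THRA are also close to each other on chromosome 27. In the coordinates of the deposited table, for which the genome build was not given in the sources used here, THRA lies at 4342518 to 4348356 and IGFBP4 at 4442295 to 4447225, with 93.9 kb between them. In RefSeq's order of genes on assembly GRCg7b, 10 protein-coding genes lie between the pair, of which CDC6 and TOP2A were in the table. NR1D1, a nuclear receptor of the circadian clock, is the gene next to THRA in that order. The libraries kept the strand of the RNA, but whether the authors' FPKM used it was not given in the sources used here.

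TOP2A, a topoisomerase of dividing cells that ends 8.11 kb before IGFBP4, was listed at 16.9 FPKM in the immature group and 1.05 FPKM in the mature group (difference -3.13), opposite to IGFBP4. CDC6, which loads the replication helicase, was listed at 1.73 and 0.181 FPKM (difference -1.21). MED24, a Mediator subunit that ends 3.24 kb from THRA and that mammalian work ties to thyroid hormone receptors, was listed at 6.0 and 2.45 FPKM (difference -1.02), the same direction as THRA. Further away, the growth factor receptor gene ERBB2 was listed at 6.82 and 2.51 FPKM (difference -1.16) and PPP1R1B, a phosphatase inhibitor, at 2.15 and 0.368 FPKM (difference -1.20). On the other side of IGFBP4 the chemokine receptor gene CCR7 was listed at 0.130 and 0.638 FPKM (difference 0.54).

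Within 500 kb of THRA or IGFBP4 there were 10 other mRNA rows, 6 lower and 4 higher, of which 6 and 2 were past 2-fold. Of all mRNA rows 29.8% were past 2-fold lower and 35.9% past 2-fold higher. On the whole of chromosome 27, 12 of 22 rows were lower, so nothing is read from these few neighbours. The higher rows were CCR7, CSF3 (0.318 and 1.11 FPKM), STAT3 and the unnamed gene ENSGALG00000023818 (6.73 and 40.4 FPKM), and the lower ones included CDK5RAP3 (8.76 and 3.86 FPKM). TOP2A is also a marker of dividing cells. Of the 26 markers of that list 18 were in the table, all lower, against 45.1% of all mRNA rows. Their sums were 204 FPKM in the immature group and 19.5 FPKM in the mature group. No lncRNA of the deposited table lay within 500 kb of THRA or IGFBP4.

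**Figure D4:**
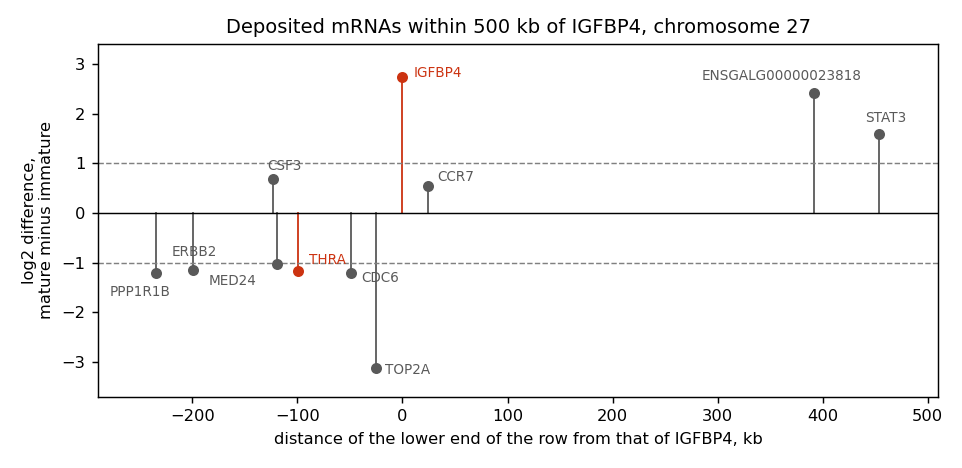
Difference on log2(FPKM + 1), mature minus immature, of IGFBP4 and the 10 mRNA rows within 500 kb of it, against the distance in kb from the lower end of IGFBP4, with dashed lines at -1 and 1. IGFBP4 (2.74) stands between TOP2A (-3.13) on one side and CCR7 (0.54) on the other, with THRA (-1.18) beyond.

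SOCS2 lies on chromosome 1 (44764152 to 44768210), and its closest rows were noncoding. An intergenic lncRNA, TCONS_00006500 (44761747 to 44763648), ends 504 bases before the lower end of SOCS2. It was listed at 1.05 FPKM in the immature group and 2.20 FPKM in the mature group (difference 0.64). The lncRNA TCONS_00006498, antisense to the mitochondrial ribosomal protein gene MRPL42, ends 2.51 kb away and was listed at 0.997 and 3.49 FPKM (difference 1.17). As deposited, both were higher in mature livers. With the median ratio of the mRNA rows as the scale, the difference of TCONS_00006498 was 0.40 and that of TCONS_00006500 turned to -0.016. The table gives no strand to say which lies upstream. Whether the intergenic lncRNA and SOCS2 are parts of 1 transcript was not tested. The nearest mRNA row, BTG1, an inhibitor of cell proliferation, lay 490 kb away and was listed at 59.6 and 206 FPKM (difference 1.77, and 0.68 after scaling by the median ratio).

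The genes with the most similar pair of group values were found by distance on the plane of log2(FPKM + 1) in immature and mature livers, a measure over only 2 values per gene. Closest to IGFBP4 was COQ10B, which binds coenzyme Q, at 13.8 and 96.4 FPKM (distance 0.02). Next came RGS5, a regulator of G protein signalling known as a pericyte marker, at 12.6 and 88.8 FPKM (0.17), and cRhoB, a small GTPase, at 12.9 and 86.0 FPKM (0.19). RGS5 is on the list of stellate cell and fibroblast markers, of which COL1A2 was the other gene in the table, and COL1A2 differed in the opposite direction (52.5 and 8.82 FPKM).

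Closest to THRA were HNRNPA3, an RNA-binding protein, at 18.0 and 7.30 FPKM (0.04), GFM1, a mitochondrial translation factor, at 18.0 and 6.86 FPKM (0.07), and IDO2, an enzyme of tryptophan breakdown, at 16.9 and 7.66 FPKM (0.09). Closest to SOCS2 were PLA2G15, a lysosomal phospholipase, at 2.10 and 6.38 FPKM (0.06), ADM, the gene of the vasodilator adrenomedullin, at 2.22 and 6.45 FPKM (0.06), and SLU7, a splicing factor, at 2.28 and 6.41 FPKM (0.09).

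As to the tissue, 5 of 25 hepatocyte markers were in the table, including the plasma protein gene AHSG (2625 and 269 FPKM), the fatty acid binding protein gene LFABP (2119 and 5.09 FPKM), RBP4 (564 and 1295 FPKM) and TAT (385 and 941 FPKM), and all 5 were detected in both groups. The hepatocyte rows went in both directions, 2 higher and 3 lower, where of all mRNA rows 54.9% were higher and 45.1% lower. After scaling by the median ratio RBP4 was at 0.10 and TAT at 0.19. The 3 lower rows, which that scaling can only lower further, were past 2-fold, as were 582 of all 1480 rows after it. No cholangiocyte marker was among the rows. Of 12 endothelial markers 3 were in the table, VWF (16.3 and 38.8 FPKM) and LYVE1 (7.39 and 17.1 FPKM) higher and STAB2 (7.72 and 3.61 FPKM) lower, with sums of 31.4 and 59.6 FPKM. After scaling by the median ratio VWF was at 0.14, LYVE1 at 0.10 and STAB2 at -1.70. The part of these cell types in the values of IGFBP4 and THRA was not tested.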

How the data were processed

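Per the labels, livers of immature and mature roosters were sequenced in 6 libraries after removal of ribosomal RNA. The authors deposited FPKM, 1 value per group and transcript, in a table of 1480 mRNAs and a table of 622 lncRNAs that they had called differentially expressed. Tools credited to the submitters' notes, which give them no role, were Cuffdiff, Cufflinks, DESeq, Bowtie2 2.0.6, TopHat and FastQC. The paper's methods describe StringTie and DESeq on Gallus gallus 5 for its own tables. The deposited columns of fold change, direction and p-value hold the authors' comparison and were not used. No read count came with the values, so their depth and precision are unknown.

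Differences were computed as log2(FPKM + 1), mature minus immature, in Python 3.11.15 with pandas 2.3.3, and past 2-fold means over 1 or under -1. The computation was tested on simulated data. A test over libraries was not possible. Each gene list was described by counts and its median, with genes matched by symbol or by the RefSeq accession in the table. Named genes were the 3 members, the context rows, the rows of 6 pathway lists, the 3 nearest rows by pattern and rows within 500 kb. Rows named from the marker lists or the annotation terms, and IYD, were chosen after their values were seen. 1 gene of the lists is not reported here. The members and lists were chosen with earlier results of these data known. Alternatives were a pseudocount of 0.1 or none, a minimum mean of 1 FPKM, 2 scalings of the groups, and summing rows of a symbol.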

Additional observations from a re-analysis of the deposited data

How the results depend on the processing

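Scaling the groups was the alternative that could move the members. IGFBP4 stayed past 2-fold higher under both scalings, at 1.66 and 1.63. THRA was at -2.09 and -2.11, but both scalings divide the mature values by over 2, so THRA could only become lower. The filter and the summing of rows leave the members' values as they are, and without a pseudocount every row above 0 in both groups is past 2-fold by the selection of the table. SOCS2 stayed higher in mature livers but was under 2-fold with the mature values scaled by the median ratio (0.40) or to the same sum (0.38). These factors, 2.15 and 2.18, come from rows selected as changed, and that selection bound the median ratio to lie above 2. The sums include SNORA73, at 50012.5 FPKM in the immature group and 150944 FPKM in the mature group, the largest mature value of the rows. Past 2-fold, 532 rows were higher and 441 lower. Without a pseudocount these were 803 and 663, together 1466. With scaling by the median ratio they were 158 and 582, and with the same sum 153 and 582. The counts of context rows, pathway rows and neighbours past 2-fold stayed within 1.5 times. Of 264 values of 98 other transcripts under alternatives, some of them added after seeing the data, 77 were not kept, of which 6 changed direction. Under the median ratio and the same sum these were the lncRNA TCONS_00006500 (-0.016 and -0.028), CRIM1 (-0.056 and -0.071) and GTF2B (-0.073 and -0.094). No paired analysis was possible because the columns hold groups and carry no replicate number; leaving out single libraries was not possible for the same reason.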

Other observations

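By the authors' gene ontology text, looked up after the values had been seen, 5 rows carried a term on thyroid hormone. The ontology text of 116 rows was not available here, so counts by ontology term may be incomplete. The text of THRA was not used here. KLF9, MED24 and MED12 were lower in mature livers (differences -2.69, -1.02 and -0.73), and GTF2B and CTSS were higher (0.95 and 2.86), though GTF2B turned to -0.073 after scaling by the median ratio. CTSS, a lysosomal protease, is also a macrophage marker. A term on insulin-like growth factors was carried by 7 rows, of which 6 were higher in mature livers and IGF2 was lower. Of all mRNA rows 54.9% were higher, and the 7 rows include the members IGFBP4 and SOCS2. Past 2-fold higher were 4 of the 7 rows (35.9% of all rows). After scaling by the median ratio 1 of the 7 was (158 of all 1480 rows). Besides IGFBP4, IGFBP1 and SOCS2 the higher ones were CRIM1 (2.29 and 4.65 FPKM, a difference that turned to -0.056 after that scaling), WISP2 (0.103 and 1.08 FPKM) and the unnamed gene ENSGALG00000028258 (0.317 and 1.68 FPKM). Of 5 rows with the KEGG term for insulin signaling 4 were higher in mature livers, against 54.9% of all mRNA rows. The lower one was PHKG1, a subunit of phosphorylase kinase (26.4 and 8.22 FPKM). Past 2-fold higher were 3 of the 5 rows (35.9% of all rows). After scaling by the median ratio 0 of the 5 were (158 of all 1480 rows).

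HNF4alpha, a transcription factor that controls many hepatocyte genes, was listed at 21.8 FPKM in the immature group and 5.24 FPKM in the mature group (difference -1.87).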
